A study of Mus musculus with 3 samples.

Results

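The cytosolic nucleic acid sensors considered here were 7 of the 55536 genes in the deposited tables, chosen by name for their textbook role: Ifih1, Ddx58, Dhx58, Mavs, Zbp1, Eif2ak2 and Tmem173. They were read in RNA from the chromatin fraction of mouse macrophages, a fraction rich in transcripts that are still being made or processed. The cells were primary macrophages grown from the bone marrow of C57BL/6J mice, and all had received lipid A, the Toll-like receptor 4 ligand of bacterial endotoxin, at 100 ng/ml for 50 min. The 3 libraries, made after ribosomal RNA depletion, formed 1 group of biological replicates. Untreated cells were not analysed here, so each value below is a level after lipid A and not a response to it, and no test between groups could be made. The labels gave the 3 libraries 1 donor code, so the spread between them may be technical as well as biological. Age and sex were not given.

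Cells detect viral or misplaced nucleic acid in the cytosol through receptors that bind RNA or DNA. Ifih1 (MDA5), Ddx58 (RIG-I) and Dhx58 (LGP2) are related RNA helicases, and the first pair signals through the mitochondrial adaptor Mavs to kinases that activate interferon genes. Tmem173 (STING) relays signals from the DNA sensor cGAS, Eif2ak2 (PKR) stops translation when it binds double-stranded RNA, and Zbp1 binds Z-form nucleic acid and can start cell death. In macrophages several of these genes are themselves induced by interferon.

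The gene tables held 10496703, 17687379 and 14806118 expected counts (estimated reads per gene, which need not be whole) in replicates 1, 2 and 3. By the labels, these libraries were begun with 1000, 250 and 500 ng of RNA, in the same order. All 10 macrophage markers were detected, that is, had at least 10 counts in each library, and their levels summed to 763, 731 and 760 TPM (a level per transcript length, scaled to a fixed sum) in replicates 1, 2 and 3. Of 27 markers of other blood, stromal and vessel cell types, 4 were detected (Cd4, Zbtb46, Xcr1 and Kit) and 9 were at 0 in every library, and the 27 together summed to 4.24 to 5.65 TPM. In a second quantification deposited by the authors, 5 of the 27 were at 0 and their sum was 21.2 to 33.4 TPM, with Pecam1, an endothelial and leukocyte adhesion protein, the highest at a mean of 6.46 TPM. In bulk RNA of this kind, fewer cells of a type and less RNA per cell cannot be told apart.

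The 3 helicases share a catalytic core, and the DNA that encodes its motif II, the DExH box needed for ATP hydrolysis, is shown to compare them. The 30 coding bases around that motif are given for each gene from the GRCm38 genome, all on the minus strand, with the 4 codons of the motif in capitals.

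Ifih1 chr2:62610618-62610647: attatcattGATGAGTGCCATcacaccaac

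Ddx58 chr4:40223876-40223905: atgatatttGATGAGTGTCATaacactagc

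Dhx58 chr11:100703229-100703258: attgtggtgGACGAGTGTCACcacacccac

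These codons were numbers 444 to 447 of 1025 in Ifih1, 373 to 376 of 926 in Ddx58 and 131 to 134 of 678 in Dhx58. Aligned over their coding sequences and with gaps left out, Ifih1 and Ddx58 were identical at 61.1% of bases, Ifih1 and Dhx58 at 63.1%, and Ddx58 and Dhx58 at 61.0%. No run of 31 bases was shared between the exons of any 2 of the 7 genes, so a read could match 2 of them only over a shorter run. The share of 31-base runs found in some other gene, on either strand, was 0.159% for Ifih1, 2.07% for Ddx58, 3.76% for Dhx58, 0.227% for Zbp1, 0.453% for Tmem173, 8.16% for Eif2ak2 and 0 for Mavs.

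Of the 7 sensors, 6 were detected and 5 lay above the median of 4.87 TPM over the 9665 detected protein-coding genes. Levels spanned a wide range, with Ifih1 the highest by mean and the adaptors Mavs and Tmem173 the lowest.

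**Figure D1:**
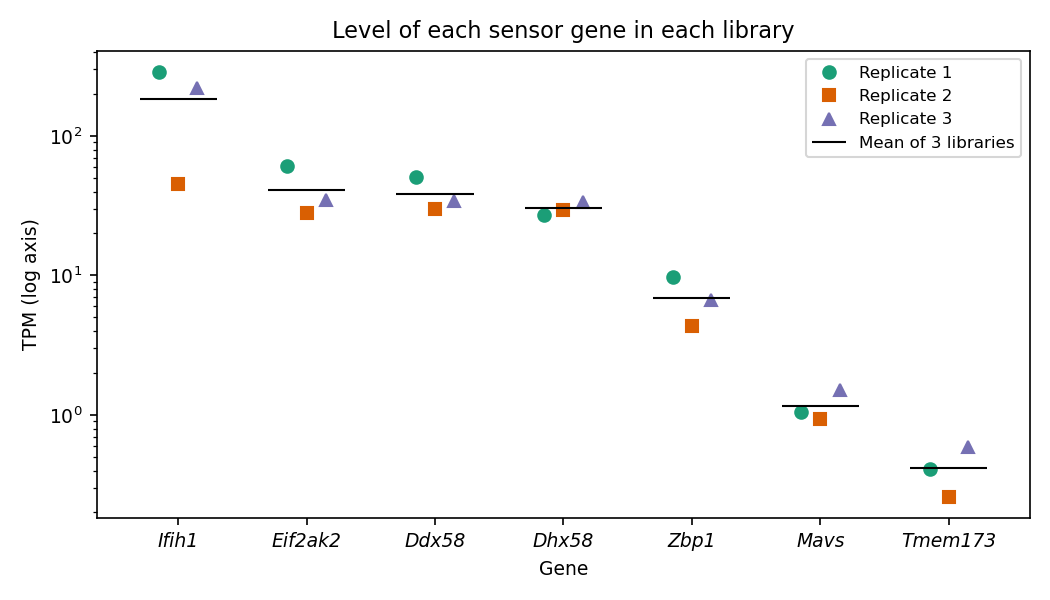
TPM of each sensor gene (log axis) in replicates 1, 2 and 3, with the mean of the 3 libraries as a bar, ordered by mean. Ifih1 averaged 185 TPM, Eif2ak2, Ddx58 and Dhx58 averaged between 30.2 and 41.3 TPM, and Mavs and Tmem173 averaged 1.16 and 0.42 TPM.

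Among the RNA helicases, Ifih1 (chr2:62595798-62646255, minus strand, GRCm38), the receptor for long double-stranded RNA, had 288, 45.5 and 221 TPM in replicates 1, 2 and 3. Its mean was 185 ± 125 TPM (SD, n = 3), and 163 of the 9665 detected protein-coding genes (1.69%) had a higher mean. Replicate 2 was far below the others, and the SD amounted to 67.7% of the mean.

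Ddx58 (chr4:40203773-40239828, minus strand), the receptor for RNA with a free 5′ triphosphate, had 50.8, 30.1 and 34.0 TPM in replicates 1, 2 and 3, with a mean of 38.3 ± 11.0 TPM (SD, n = 3). Dhx58 (chr11:100694884-100704271, minus strand), which lacks the signalling domains of the other helicases and modulates them, had 27.2, 29.7 and 33.9 TPM, with a mean of 30.2 ± 3.40 TPM (SD, n = 3). The ranges of Ddx58 and Dhx58 overlapped. The level of Ifih1 was 5.66, 1.51 and 6.51 times that of Ddx58 in replicates 1, 2 and 3, so it was higher in each library, yet the lowest Ifih1 value lay below the highest Ddx58 value. The ranges of Ifih1 and Dhx58 did not overlap.

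Eif2ak2 (chr17:78852564-78882573, minus strand), the translation-stopping kinase, had 61.4, 28.1 and 34.5 TPM in replicates 1, 2 and 3, with a mean of 41.3 ± 17.7 TPM (SD, n = 3). Its range overlapped those of Ddx58 and Dhx58, so the order of these 3 genes was not settled by their spread. Zbp1 (chr2:173206612-173218923, minus strand), the Z-form sensor, had 9.75, 4.38 and 6.65 TPM, with a mean of 6.93 ± 2.70 TPM (SD, n = 3), below every value of Dhx58.

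The adaptors were low. Mavs (chr2:131234063-131248025, plus strand) had 1.05, 0.93 and 1.5 TPM in replicates 1, 2 and 3, with a mean of 1.16 ± 0.30 TPM (SD, n = 3), resting on 37, 64 and 70 counts. Of the detected protein-coding genes, 83.2% had a higher mean. Tmem173 (chr18:35733679-35740554, minus strand) had 0.41, 0.26 and 0.59 TPM, with a mean of 0.42 ± 0.165 TPM (SD, n = 3).

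Only 6, 9 and 11 counts stood behind the Tmem173 values in replicates 1, 2 and 3, with exact 95% Poisson intervals of 2.2 to 13.1, 4.12 to 17.1 and 5.49 to 19.7 counts, which cover counting error only. The interval that the authors deposited for Tmem173 in replicate 1, 0.791 to 3.78 TPM, did not include the deposited estimate of 0.41 TPM. For Ifih1 in replicate 1 the deposited interval was 260 to 273 TPM, against an estimate of 288 TPM. The level of these intervals was not given in the sources used here.

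The authors' second deposited quantification was made per transcript and summed here per gene, and every sensor was higher in it. Ifih1 averaged 446 TPM there, Ddx58 87.9, Eif2ak2 67.7, Dhx58 60.1, Zbp1 20.6, Tmem173 1.68 and Mavs 1.65 TPM. The ratio to the first quantification ran from 1.43 for Mavs to 4.0 for Tmem173. Ifih1 stayed highest in mean and Mavs and Tmem173 lowest, but Tmem173 and Mavs, whose ranges were separate in the first quantification, overlapped in the second. For Tmem173 the second quantification held 48.0, 62.5 and 78.7 estimated counts in replicates 1, 2 and 3.

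The libraries were then compared as CPM, that is, counts per library of equal size, after TMM, the trimmed mean of M-values, which matches the bulk of genes between libraries; CPM is not divided by length. Ifih1 had 1004, 229.7 and 834.4 CPM in replicates 1, 2 and 3, a 4.37-fold gap between the highest and the lowest library. Replicates 1 and 3 lay close together and replicate 2 well below both. Of 13262 genes with a mean of at least 10 counts, 22.2% had a gap of 2-fold or more, and among the 6 sensors in that set Ifih1 was the 1 that did. The gap of Ifih1 exceeded that of 98.0% of these genes. A gap of 2-fold or more with replicate 2 lowest was found in 8.29% of them.

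**Figure D2:**
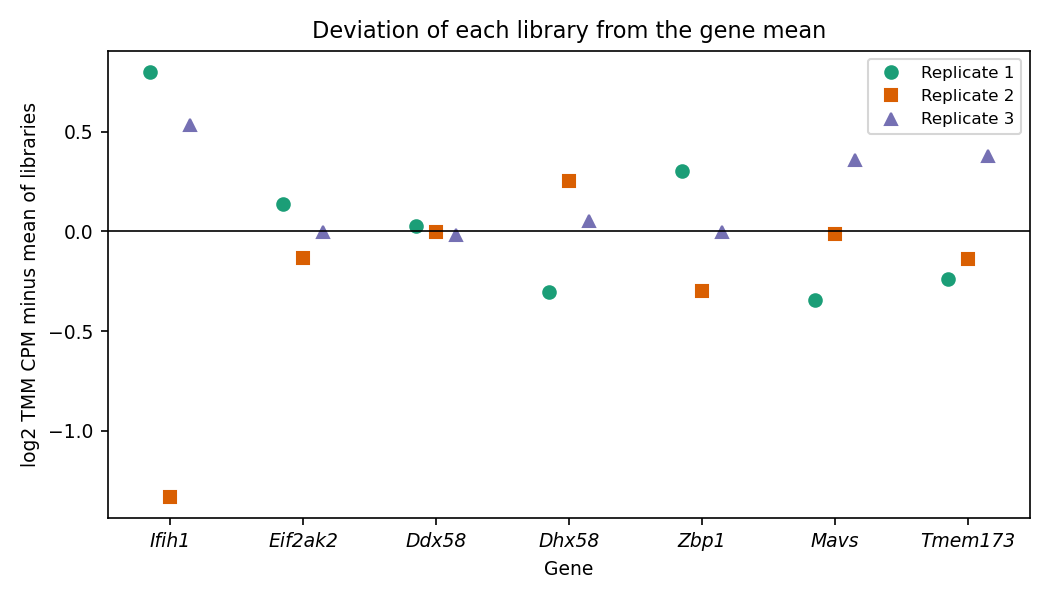
Difference of each library from the mean of the 3 libraries, in log2 TMM CPM, for each sensor gene in the order of mean TPM. Ifih1 in replicate 2 lies at -1.33, and every other point lies within 0.80 of the mean.

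Ddx58 was the steadiest sensor in TMM CPM, with 101.1, 99.0 and 97.9 CPM in replicates 1, 2 and 3. Its gap was 1.03-fold, and 0.566% of the 13262 genes had a smaller one. Ddx58 also had the smallest gap with DESeq2 size factors and in the second quantification. Dhx58 was steadier with library totals, at 1.19-fold against 1.26-fold for Ddx58, and in deposited TPM, at 1.25-fold against 1.69-fold. Eif2ak2 had 93.6, 77.4 and 84.8 CPM, a 1.21-fold gap. The order of libraries differed among the other sensors.

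Dhx58 had 36.6, 53.9 and 46.9 CPM in replicates 1, 2 and 3, lowest in replicate 1 and highest in replicate 2, the reverse of Ifih1. Zbp1 had 23.5, 15.5 and 19.0 CPM, highest in replicate 1 and lowest in replicate 2. Mavs had 3.11, 3.92 and 5.07 CPM, lowest in replicate 1 and highest in replicate 3. In deposited TPM, Dhx58 was highest in replicate 3, and Mavs and Ddx58 were lowest in replicate 2, while Zbp1 kept its order of libraries under every scaling tried. The gaps in CPM were 1.47-fold for Dhx58, 1.52-fold for Zbp1 and 1.63-fold for Mavs, near the median gap of 1.53-fold over the 13262 genes.

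In CPM, replicate 2 was the lowest library for 3 of the 6 sensors (Ifih1, Zbp1 and Eif2ak2) and for 34.4% of the 13262 genes. It was also the library with the least starting RNA and the most counts, and the part of either in the low Ifih1 value was not tested. Replicate 2 was the lowest library in CPM for 0 of the 10 macrophage markers. Among them, Csf1r and Itgam also had gaps of 2-fold or more in CPM, 2.56-fold and 2.62-fold. In both, replicate 1 was lowest and replicate 2 highest. The part of such differences in the Ifih1 values was not tested.

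**Figure D3:**
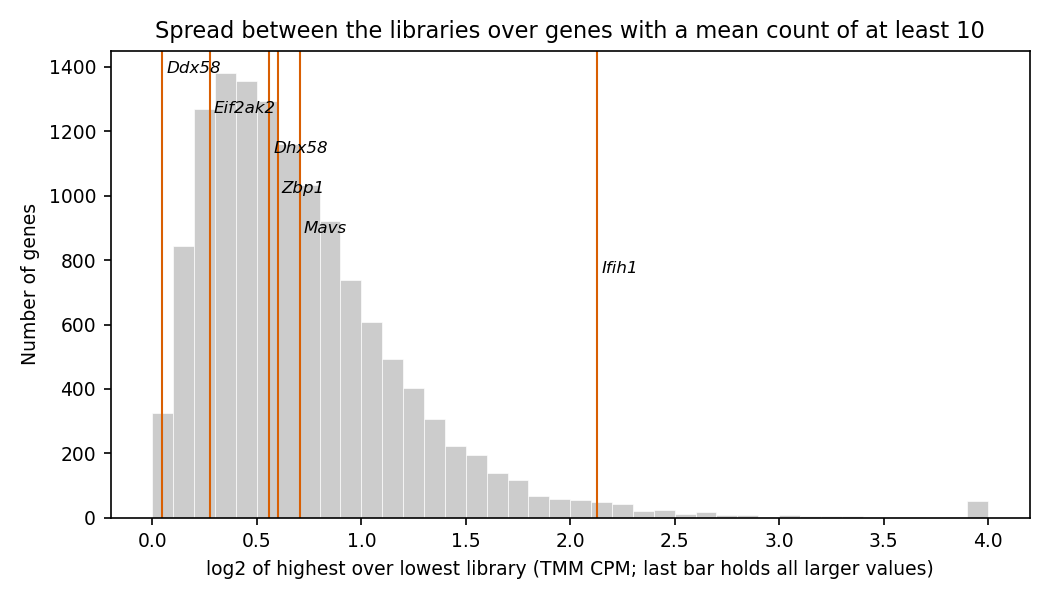
Histogram of the log2 ratio of the highest to the lowest library (TMM CPM) over the 13262 genes with a mean of at least 10 counts, with a line for each of the 6 sensors in that set. Ifih1 lies at 2.13 in the right tail, Ddx58 at 0.05 at the left edge, and the other sensors between 0.27 and 0.70.

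For Ifih1, replicate 2 was lowest and replicate 1 highest under every scaling tried: the gap was 5.40-fold with library totals, 4.35-fold with DESeq2 size factors, 4.21-fold in the second quantification and 6.32-fold in deposited TPM. Without replicate 2 the gap was 1.20-fold. The biological coefficient of variation from edgeR was 0.417 for Ifih1, against 0.242 on the trend for genes of its abundance, and 0.206 for Ddx58, against a trend of 0.241.

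Deposited TPM spread Ddx58, Zbp1 and Eif2ak2 more than CPM did, but not Dhx58 (1.25-fold in TPM, 1.47-fold in CPM) or Mavs (1.61-fold, 1.63-fold). Ddx58 differed 1.69-fold in TPM and 1.03-fold in CPM, Zbp1 2.23-fold and 1.52-fold, and Eif2ak2 2.18-fold and 1.21-fold. In TPM the median gene lay 0.22 above its own mean in replicate 1, 0.25 below it in replicate 2 and 0.05 above it in replicate 3 on the log2 scale, whereas under TMM no median moved by more than 0.02. With library totals the median gene lay 0.21 above its mean in replicate 1 and 0.10 and 0.08 below it in replicates 2 and 3. Ifih1 in replicate 2 lay 1.65 below its mean in TPM and 1.44 below it with library totals, both further than the median gene.

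The genes with a pattern across libraries most like that of Ifih1 were sought among 6981 others with a mean of at least 100 counts, by the distance between their 3 log2 deviations from the mean. The closest was Ifit2, an interferon-induced antiviral protein, with 137.0, 29 and 111.3 CPM in replicates 1, 2 and 3 and a distance of 0.0814. Peli1, a ubiquitin ligase of Toll-like receptor signalling, came next with 333.9, 67.9 and 269.1 CPM and a distance of 0.125. These were the only 2 genes within a distance of 0.2, and 9130230L23Rik followed at 0.217. For Mavs, the sensor with the next largest gap, 259 genes lay within 0.2, led by Mbd6, Prdm15 and Zfp703. With 3 libraries such likeness is a description only.

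Ifih1 has 5 annotated transcripts, and all 5 were lowest in replicate 2 in both quantifications. The coding transcript Ifih1-201 had 432.2, 83.7 and 275.8 CPM in replicates 1, 2 and 3, and the shorter coding Ifih1-202 had 132.0, 69.3 and 158.7 CPM. Ifih1-203, annotated as a retained intron, ends 12.8 kb into the 50.5 kb gene, and 61.1% of its 2565 bases lie in introns of Ifih1-201. It had 330.9, 61.6 and 303.6 CPM. Ifih1-205, another retained-intron form, had 105.6, 14.5 and 94.5 CPM. The low value of replicate 2 was thus seen in transcripts that end early in the gene as well as in those that run to its end.

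**Figure D4:**
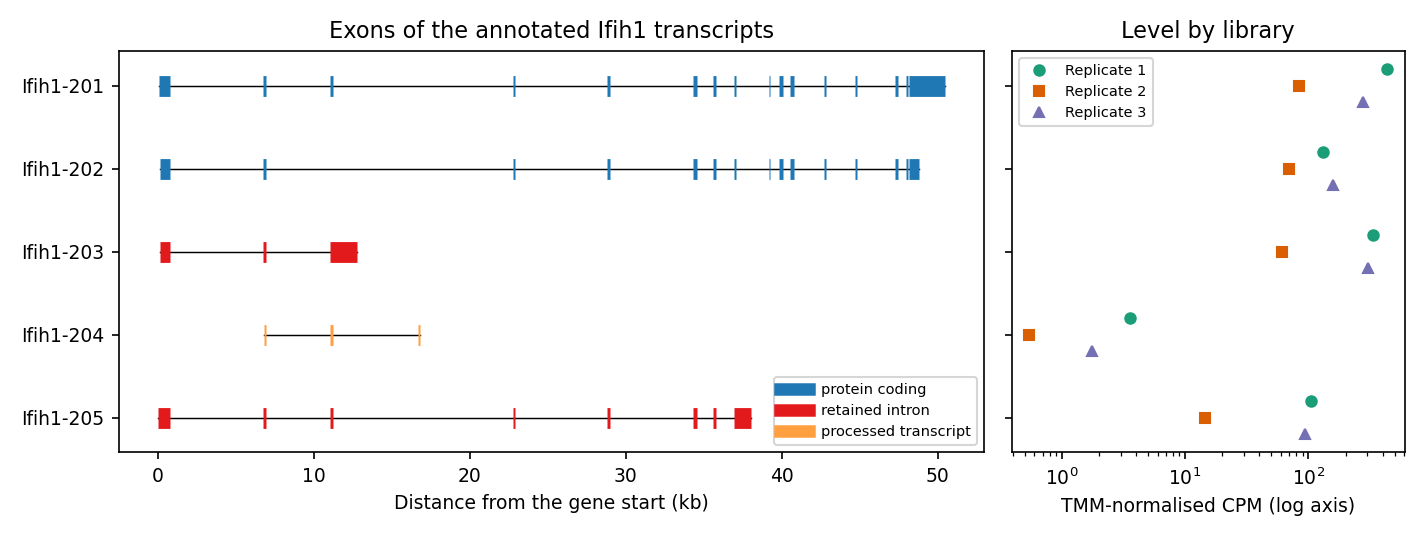
Left, exons of the 5 annotated Ifih1 transcripts by distance from the gene start in kb, coloured by annotated type. Right, TMM CPM of each transcript in replicates 1, 2 and 3 on a log axis, where replicate 2 is the lowest point for all 5.

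The quantifications shared the reads of Ifih1 among its transcripts differently. Ifih1-203 held 43.1% of the TPM of Ifih1 on average in the first quantification and 19.2% in the second. The 439-base processed transcript Ifih1-204 held 3.89% in the first and 49.9% in the second. The level of single Ifih1 transcripts therefore depended on the quantification, while the lowest library was replicate 2 in both.

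Transcripts not annotated as coding, such as retained introns and processed transcripts, were then read as a share of each sensor, which depended on the unit and on the quantification. In the first quantification their share of the gene's TPM averaged 58.0% for Ifih1, 63.2% for Ddx58, 61.6% for Dhx58, 55.6% for Zbp1, 64.3% for Eif2ak2, 83.7% for Tmem173 and 9.46% for Mavs. Shares of at least 50% of TPM were thus found in 6 of the 7 sensors, and in 46.7% of 8067 detected protein-coding genes that have both kinds of transcript, whose median share was 47.5%. As a share of expected counts, which are not divided by length, these transcripts held 41.7% of Ifih1, 38.1% of Ddx58, 28.2% of Dhx58, 76.5% of Zbp1, 15.4% of Eif2ak2, 75.6% of Tmem173 and 9.60% of Mavs. By that measure 2 of the 7 sensors reached 50%, as did 28.4% of the 8067 genes, whose median was 27.3%. In the second quantification 4 of the 7 reached 50% of TPM, as did 58.9% of the 8067 genes, whose median was 57.0%. Tmem173, counted among the 6 and the 2 above, fell short of the detection rule used for the 8067 genes. Its shares in the first quantification rested on 6, 9 and 11 counts in replicates 1, 2 and 3.

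**Figure D5:**
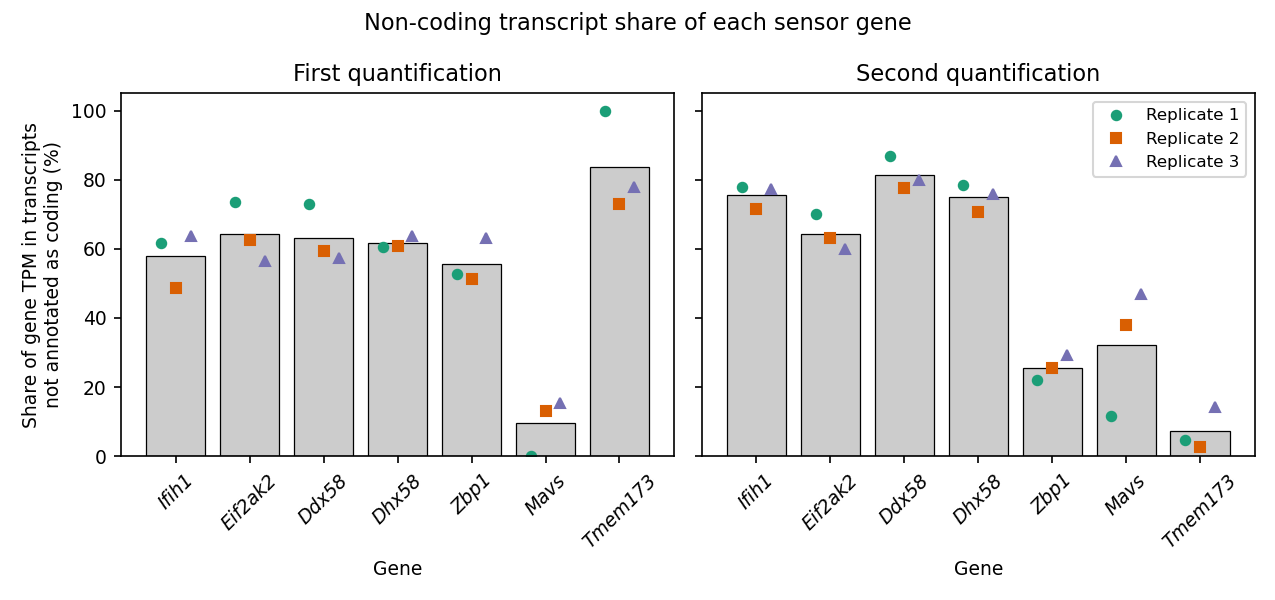
Percent of each sensor gene's TPM in transcripts not annotated as coding, in the first (left) and second (right) quantification. Bars are means of 3 libraries and points are the libraries. Ifih1, Eif2ak2, Ddx58 and Dhx58 are above 50% on average in both panels, and Zbp1 and Tmem173 in the left panel only.

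In Zbp1 this share came from a single form, Zbp1-203, which keeps intron 4 of the coding transcript whole and held 52.7%, 51.1% and 63.1% of the Zbp1 TPM in replicates 1, 2 and 3. The second quantification gave it 25.5% on average and gave 68.96% to the short coding form Zbp1-202. In Tmem173 the first quantification gave 77.5% to the retained-intron form Tmem173-206, and the second gave 72.7% to the coding form Tmem173-205, which had no TPM in the first. The isoform make-up of Zbp1 and Tmem173 was therefore not stable between the deposited quantifications. For all sensors, transcripts still being processed, in which this fraction is rich, were not told apart from annotated retained-intron forms.

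When coding transcripts alone were counted, the gaps in TPM were 1.18-fold for Ddx58, 1.15-fold for Dhx58 and 1.54-fold for Eif2ak2. Those of Zbp1 and Mavs hardly changed, at 2.15-fold and 1.59-fold against 2.23-fold and 1.61-fold for the whole genes. Ddx58 had 13.7, 12.2 and 14.5 coding TPM in replicates 1, 2 and 3, and Dhx58 had 10.7, 11.6 and 12.3 coding TPM. Ifih1 had 110.3, 23.4 and 80.3 coding TPM, a 4.72-fold gap with replicate 2 again the lowest. Eif2ak2 had 16.2, 10.5 and 15 coding TPM.

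Overlapping genes touched 2 sensors. Dhx58 shares 141 of its 3272 exon bases with the antisense gene Dhx58os, which had 27.1, 52.0 and 31.1 counts in replicates 1, 2 and 3. Eif2ak2 shares 174 of its 5113 exon bases with the opposite-strand gene Gm26637, which had 42.1, 50.2 and 45.1 counts, and 47 with a ribosomal RNA copy that had 0 counts. The strand setting of the counting was not given in the sources used here, so a few reads of Dhx58 and Eif2ak2 may belong to these neighbours.

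Promoter sequence was at hand for 4 sensors in a RefSeq table (GRCm38.p6) that gives 250 bases before and 50 after each gene start. The interferon-stimulated response element core, which is GAAA, any 2 bases and GAAA on either strand, was found in the windows of Ifih1, Ddx58 and Eif2ak2, not in that of Mavs, and in 3.44% of all 32851 windows. A site is shown for every sensor window that held the core. The core is in capitals in the 30 bases around it, read 5′ to 3′ on the gene's strand.

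Ifih1 chr2:62646206-62646235, minus strand: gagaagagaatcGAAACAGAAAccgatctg

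Ddx58 chr4:40239804-40239833, minus strand: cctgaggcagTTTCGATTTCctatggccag

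Eif2ak2 chr17:78882535-78882564, minus strand: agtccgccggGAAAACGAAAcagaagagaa

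The core lay at bases 33 to 42 from the RefSeq start in Ifih1, 3 to 12 in Ddx58, where it runs on the opposite strand, and 19 to 28 in Eif2ak2. The bases before the start are shown for Ifih1 and Mavs, the highest of the sensors with a window and the lowest. Capitals mark the CCAAT box (CCAAT) and the GC box (GGGCGG, here on the opposite strand).

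Ifih1 chr2:62646256-62646505, minus strand: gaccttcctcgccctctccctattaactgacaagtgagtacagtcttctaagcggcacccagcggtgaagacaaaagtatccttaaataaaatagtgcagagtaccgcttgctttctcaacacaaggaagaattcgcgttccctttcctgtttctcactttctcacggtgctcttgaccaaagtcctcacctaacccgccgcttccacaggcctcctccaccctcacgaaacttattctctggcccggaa

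Mavs chr2:131233813-131234062, plus strand: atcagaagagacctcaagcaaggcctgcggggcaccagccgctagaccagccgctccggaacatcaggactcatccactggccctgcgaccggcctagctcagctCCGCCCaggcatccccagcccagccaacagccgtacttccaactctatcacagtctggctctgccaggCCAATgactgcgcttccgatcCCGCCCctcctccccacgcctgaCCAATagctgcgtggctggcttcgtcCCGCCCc

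The Mavs stretch holds 2 CCAAT boxes and 3 GC boxes, and that of Ifih1 holds neither motif. A CCAAT box was present in 37.4% and a GC box in 35.7% of all windows. The Ddx58 window holds 3 GC boxes, of which a pair overlap by 1 base. The Eif2ak2 window holds a GAS core (TTCNNNGAA, read the same on both strands), present in 8.30% of windows. The NF-kB consensus was found in none of the 4 windows and in 4.51% of all. These matches are descriptions of the letters in the windows.

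The surrounding pathway was read from 7 lists of partners with 96 distinct genes, of which 85 were detected and 88 had a mean of at least 10 counts. Of those 88, 8 (9.09%) had a gap of 2-fold or more between libraries, against 22.2% of all genes in the set. The sets were not matched for level, so these shares do not show that the pathway genes were steadier. Replicate 2 was the lowest for 4 of the 8, and for 1100 of the 2939 genes with such a gap in the whole set. The median level of all 96 genes was 10.3 TPM, and 4 of the 96 exceeded the mean of Ifih1.

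Of 15 partners in DNA sensing, 12 were detected. Ifi203 and Ifi204, members of the interferon-inducible family of DNA-binding proteins, had means of 323 ± 150 and 162 ± 37.0 TPM (SD, n = 3 each). Zcchc3, a cofactor of nucleic acid sensors, was listed at 0.03 TPM in replicate 1 and at 0 in replicates 2 and 3. The DNA sensor cGAS, under the symbol Cgas, averaged 5.75 TPM and is named here for its place upstream of Tmem173, outside the rule for named genes.

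Of 17 partners in RNA sensing, 16 were detected, and of these 16, which also made up the genes with a mean of at least 10 counts, 0 had a gap of 2-fold or more. Zc3hav1 (ZAP), which binds viral RNA, had 101.4, 71.8 and 110.9 TPM in replicates 1, 2 and 3. Nlrp1b, an inflammasome sensor, had 83.9, 83.7 and 89.3 TPM.

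All 18 adaptors, kinases and factors below the sensors were detected. Ikbke, a kinase that phosphorylates interferon regulatory factors, had 608.7, 462.4 and 415.7 TPM in replicates 1, 2 and 3, above Ifih1 in each library. Tank, a scaffold of that kinase, had 533.3, 180.2 and 294.4 TPM, and its gap in CPM was 2.19-fold with replicate 2 lowest, as for Ifih1. Fadd, a death-domain adaptor, averaged 0.80 TPM.

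All 5 death partners of Zbp1 were detected. Ripk1, a kinase of necroptosis and inflammation, averaged 22.3 ± 7.42 TPM, and Casp8, a caspase that restrains necroptosis, averaged 13.0 ± 1.67 TPM (SD, n = 3 each). Zbp1 averaged 6.93 TPM, and every value of Ripk1 and Casp8 was above the highest of Zbp1 in the first quantification. In the second, Ripk1 averaged 35.1 TPM and Casp8 19.4 TPM, against 20.6 TPM for Zbp1, and the ranges of both overlapped that of Zbp1.

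All 11 genes in the list of Eif2ak2 partners and other eIF2-alpha kinases were detected. Ppp1r15a, the phosphatase subunit that reverses the mark set by Eif2ak2, had 125.4, 41.1 and 173.9 TPM in replicates 1, 2 and 3, with replicate 2 lowest. Atf4, the transcription factor of the stress response, averaged 25.8 ± 3.91 TPM (SD, n = 3). Eif2ak3 (PERK), the kinase of endoplasmic reticulum stress, averaged 0.84 TPM, below every value of Eif2ak2.

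Of 25 brakes and nucleases, 19 were detected. Tnfaip3 (A20), a ubiquitin-editing brake on inflammatory signalling, had 751.5, 525.1 and 679.3 TPM in replicates 1, 2 and 3, above Ifih1 in each library. Pcbp2, which directs Mavs to degradation, averaged 84.6 ± 27.0 TPM (SD, n = 3), and Rnf125, a ubiquitin ligase of Ddx58 and Ifih1, averaged 0.0167 TPM. Of 8 genes of STING traffic and regulation, 6 were detected. Rhbdf2 (iRhom2), which helps STING to leave the endoplasmic reticulum, averaged 97.2 ± 12.4 TPM, Sec24c, a coat protein of that step, averaged 36.5 ± 3.78 TPM (SD, n = 3 each), and Tmem203, a STING partner, averaged 0.147 TPM.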

How the data were processed

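Chromatin-fraction RNA-seq libraries of 3 macrophage replicates were analysed as deposited. Per the file headers, the gene and transcript tables hold expected counts and TPM made by the authors, and gene tables also hold bounds of a TPM interval. A second deposited transcript table holds estimated counts and TPM and was summed per gene. The build was mm10 with GENCODE M21, per the deposited notes. The sources used here name neither the aligner, the quantification tools nor the strand setting. Rows naming no mouse gene (1.28%, 0.427% and 0.383% of counts in replicates 1, 2 and 3) were left out.

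Counts were rounded and scaled by TMM in edgeR 4.0.16 (R 4.3.3), with 0.5 counts added before log2 CPM, and DESeq2 1.42.0 gave alternative size factors. The range step was tested on simulated counts that varied less between libraries than these data. That test covers the code and not the gaps reported here. Count intervals are exact Poisson at the 95% level. Tables were joined in pandas 2.3.3, and coding sequences were aligned in Biopython 1.88.

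Named genes were all 7 sensors, the 2 highest and the lowest of each partner list by mean TPM, and the 3 nearest patterns of the 2 sensors with the largest gaps. Members and lists were chosen with earlier results of these data known.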

Additional observations from a re-analysis of the deposited data

How the results depend on the processing

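The median level of the 7 sensors was 4.92 as log2(TPM + 0.1), 5.90 in the second quantification, 7.27 with TPM rescaled over protein-coding genes, and 4.83 to 4.97 with a library left out. Among the 6 sensors with a mean of at least 10 counts, 1 had a gap of 2-fold or more in CPM, as did 22.2% of the 13262 genes. In deposited TPM the count was 3 (Ifih1, Zbp1 and Eif2ak2), with Tmem173, outside the 6, at 2.27-fold. The share of all genes with such a gap in TPM was not computed, so the 3 cannot be judged against it. With a library left out the count was 0 to 1, and it was 0 without replicate 2, which alone sets the gap of Ifih1. The median log2 gap of all 7 was 0.60, against 1.13 in deposited TPM and 0.30 to 0.35 with a library left out, where fewer libraries narrow a range by construction. The median share in transcripts not annotated as coding was 61.6%, against 64.4% in the second quantification, 38.1% as shares of expected counts and 58.3% to 62.7% with a library left out. The causes of the differences between quantifications were not tested. All 7 member levels moved by more than 1 SD in the second quantification. With a library left out, a mean of 3 cannot move that far by construction, so nothing is read from that comparison. The depth of 6 to 11 counts for Tmem173 allows no statement on its spread. No paired analysis was possible because the libraries form 1 group.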
